A study of Mus musculus with 4 samples.

Results

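Macrophages given RANKL and IL-3 together for 24 h were set against macrophages given neither, and the comparison asks what state the pair of cytokines leaves. It covers 2 of the 4 RNA sequencing libraries and 10456 of the 23920 genes in the table, those with a summed level of at least 1 FPKM (fragments per kilobase of transcript, scaled to the depth of the library) in either library, after 32 small RNA genes were left out. A further 8085 genes were at 0 in both libraries. The cells were bone marrow-derived macrophage-like cells (BMMs), macrophages grown from marrow, of *Stat5* fl/fl mice. These C57BL/6 mice carry floxed *Stat5a* and *Stat5b* without the Mx1-Cre transgene, and according to the methods received poly I:C like their *Stat5* cKO littermates. Both libraries had M-CSF at 30 ng/mL, so the control is a culture with M-CSF, not a culture without cytokine. The second had RANKL at 100 ng/mL and IL-3 at 1 ng/mL besides. The mice were 8 weeks old by the sample labels, whereas the methods give another age for the osteoclast cultures. Another *Stat5* fl/fl library with M-CSF and RANKL alone serves below to show which effects of RANKL remained. The library of *Stat5* cKO cells enters only the check of the sex label and the closing observations.

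M-CSF keeps macrophage precursors alive and dividing. RANKL, a member of the TNF family, binds RANK on these cells, activates NF-κB and AP-1, and through the transcription factor NFATc1 turns them into osteoclasts, the fused cells that resorb bone. IL-3, a cytokine of T cells and mast cells, signals through a receptor built of *Il3ra* and a beta chain, *Csf2rb* or *Csf2rb2*. Through JAK2 and STAT5 it acts on myeloid progenitors. It is known to divert macrophage precursors from the osteoclast fate.

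Each condition had 1 library, so no test between conditions was possible and no p-value is given. Ratios are log2 ratios of FPKM + 1, and a gene at least 2-fold apart on that scale is called higher or lower. An estimate from low values put the depth at 33.1 to 36.9 M fragments per library. For the 321 members of the gene lists and named genes with at least 5 FPKM in both libraries, counting error gave a median half-width of 0.07 on the log2 scale (95% interval) and at most 0.26. These intervals cover counting error only, not the spread between cultures or mice. *Stat5a* was at 9.89 FPKM with M-CSF and 12.0 with RANKL and IL-3, and *Stat5b* at 10.8 and 8.86, so both genes were transcribed on both sides. The mice are labelled male, yet *Xist* was at 36.1 FPKM with M-CSF, 47.0 with RANKL and 31.9 with both cytokines, and *Ddx3y*, *Eif2s3y*, *Kdm5d* and *Uty* were at 0 in all 4 libraries. The libraries therefore went against this label in the same way, on both sides of the comparison. The macrophage genes *Csf1r*, *Lyz2* and *Cd68* were expressed on both sides, and all 28 genes of the macrophage list were measured.

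With RANKL and IL-3, 269 genes were higher than with M-CSF alone (2.57% of the 10456) and 153 were lower (1.46%), while 10034 stayed within 2-fold. The median log2 ratio over all genes was -0.00, and 6921 genes lay within 1.2-fold. RANKL alone put more genes apart from the same M-CSF library. There, 487 genes were higher (4.66%) and 740 lower (7.08%). The median absolute log2 ratio was 0.17 for RANKL and IL-3 and 0.36 for RANKL alone. The upper tail was long, with 85 genes at least 4-fold higher and 19 at least 4-fold lower. At the threshold itself, *Prkcd* (97.2 and 196 FPKM) was just inside it at a log2 ratio of 1.00, and *Junb* (48.9 and 97.9 FPKM) just outside at 0.99.

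**Figure D1:**
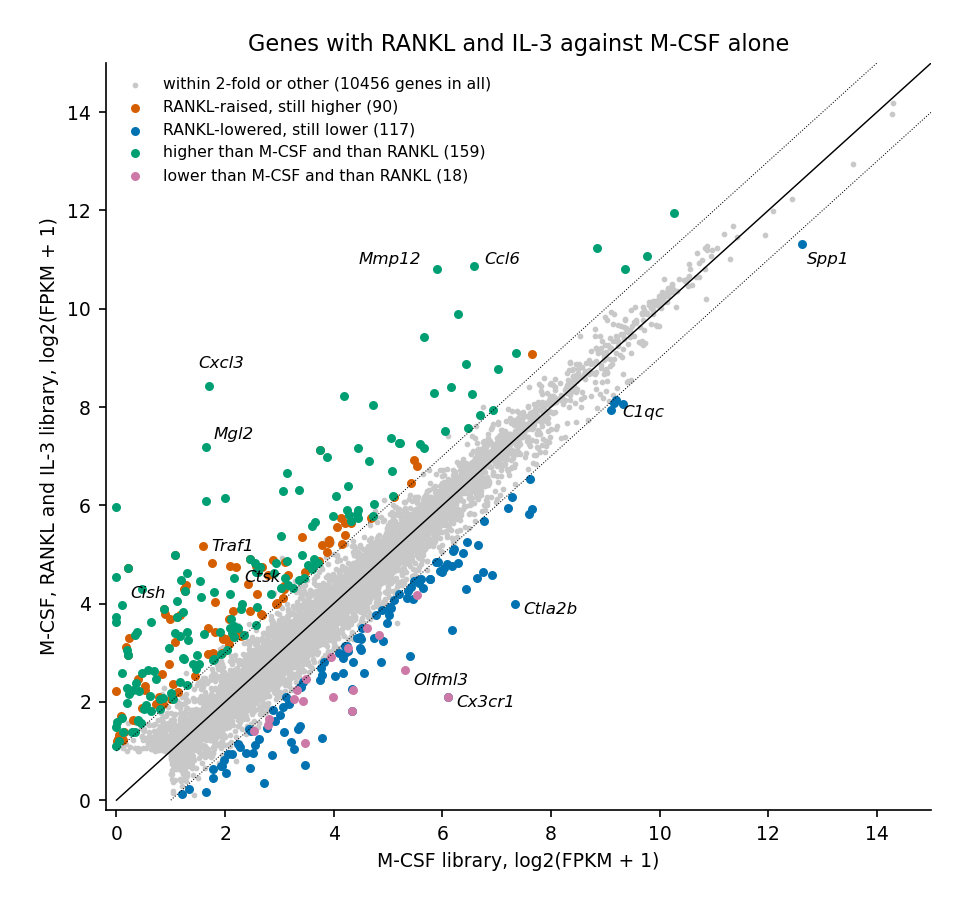
Level of each of the 10456 genes in the M-CSF library (x axis) and in the library with M-CSF, RANKL and IL-3 (y axis), both as log2(FPKM + 1). The solid line marks equal levels and the dotted lines a 2-fold difference. Colours mark 4 classes of genes, in which the 8 genes both RANKL-raised and higher than RANKL are drawn in green and the 2 both RANKL-lowered and lower than RANKL in pink. Green points such as *Cxcl3* and *Mgl2* stand far above the line, and *Cx3cr1* stands farthest below it.

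Most effects of RANKL were not seen at 2-fold once IL-3 was present. Of the 487 genes higher with RANKL than with M-CSF, 395 (81.1%) were within 2-fold of M-CSF with RANKL and IL-3, 90 (18.5%) were still higher, and 2, *Itgav* and *Fam102a*, were lower than with M-CSF. Of the 740 genes lower with RANKL, 590 (79.7%) were within 2-fold of M-CSF, 117 (15.8%) were still lower and 33 (4.46%) were higher. Of the 395 genes, 188 were also at least 2-fold lower than with RANKL alone, and 207 were within 2-fold of it. Of the 590, 344 were at least 2-fold higher than with RANKL alone, and 246 were within 2-fold of it. By these thresholds, genes within 2-fold of both libraries can only lie between the M-CSF and the RANKL level. The 90 genes still higher made up 0.861% of all genes and the 117 still lower 1.12%. Both ratios of such a gene are taken against the same M-CSF library, so an unusual value there would place a gene in either class, and its part was not tested. The 487 and 740 genes were also chosen by their level in the RANKL library. An unusual value there would make a gene seem to return towards M-CSF, and its part was not tested either. The median share of the RANKL ratio that was left was alike in both directions, but its spread was not. Across the 487 genes raised by RANKL, the log2 ratio with IL-3 was a median of 29.5% of that without it (quartiles 15.5% and 50.5%), and across the 740 lowered genes 28.5% (quartiles 1.97% and 53.3%). The share was below 0, past the M-CSF level, for 53 of the 487 and 171 of the 740.

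**Figure D2:**
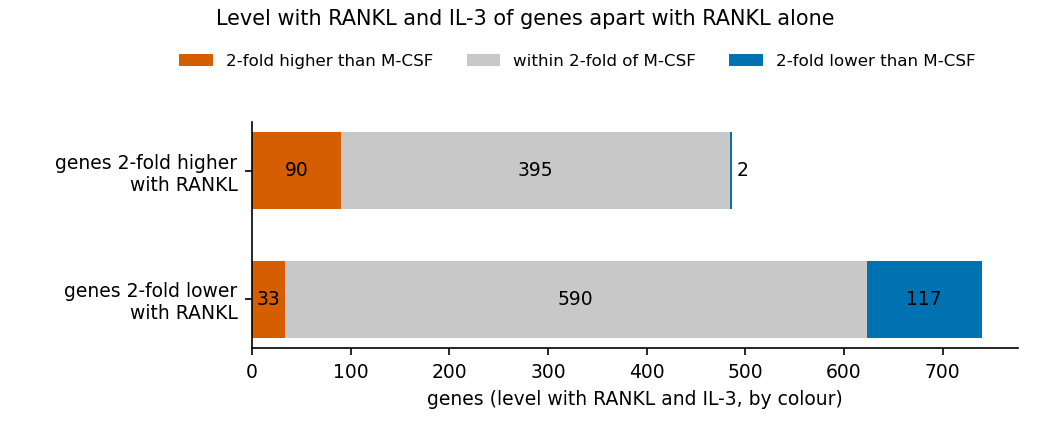
Genes at least 2-fold higher (top bar) or lower (bottom bar) with RANKL than with M-CSF, divided by where they stood against M-CSF in the library with RANKL and IL-3. The x axis counts genes, and the grey part, within 2-fold of M-CSF, is the largest in both bars.

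The 90 RANKL-raised genes that were still higher held parts of the osteoclast and NF-κB programs. Against RANKL alone, 31 of them were at least 2-fold lower with IL-3, 51 were within 2-fold and 8 were higher. *Traf1*, an adaptor of TNF receptors and an NF-κB target, was at 2.02 FPKM with M-CSF, 112 with RANKL and 34.9 with both cytokines. The level with both cytokines thus lay between the others, 17.3 times that with M-CSF (95% counting interval 14.7 to 20.5). *Atp6v0d2*, a subunit of the proton pump that acidifies the resorption pit, was at 2.38, 98.5 and 27.5 FPKM with M-CSF, RANKL, and RANKL plus IL-3. *Ctsk* encodes cathepsin K, the collagen-degrading protease of osteoclasts, and was at 3.60, 338 and 25.8 FPKM. It remained 7.16 times its M-CSF level (6.13 to 8.41), far below its level with RANKL alone.

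*Dcstamp*, needed for the fusion of osteoclast precursors, was at 2.51 FPKM with M-CSF, 43.95 with RANKL and 15.4 with both cytokines. *Gpr132*, a G protein-coupled receptor, was at 1.25, 42.6 and 12.7 FPKM. In each of these genes the level with both cytokines was above the M-CSF level and below the RANKL level. Others kept the level of RANKL alone. *Ralgds*, an exchange factor for Ral, was at 1.42, 17.8 and 19.9 FPKM. *Pgf*, placental growth factor, was at 0.13, 10.6 and 7.64 FPKM. *Abcg1*, a cholesterol efflux transporter, was at 0.85 FPKM with M-CSF, 7.88 with RANKL and 12.9 with both cytokines, higher with the pair than with RANKL. *Socs3*, a feedback inhibitor of JAK signalling, was at 1.12, 12.1 and 30.7 FPKM, and was among the 8 genes of the 90 that were 2-fold above RANKL alone too.

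Of 18 osteoclast effector genes compared, 8 were higher with RANKL and IL-3 than with M-CSF, 2 lower and 8 within 2-fold, with a median log2 ratio of 0.41 (0.26 with no minimum). With RANKL alone 9 were higher and 1 lower, with a median of 1.00. The genes with the highest ratios after *Atp6v0d2* and *Ctsk* were *Src*, *Hvcn1* and *Car2*. *Src*, a kinase of the ruffled border, was at 0.32, 37.1 and 4.55 FPKM with M-CSF, RANKL, and RANKL with IL-3. *Car2*, the carbonic anhydrase that supplies protons, was at 0.43, 23.8 and 3.71 FPKM. *Acp5*, tartrate-resistant acid phosphatase, stayed close to the M-CSF level by comparison, at 12.2, 432 and 28.2 FPKM. *Mmp9*, a gelatinase of osteoclasts, had the same shape at 10.1, 182 and 24.0 FPKM. *Hvcn1*, a proton channel, did not follow it, at 14.8, 12.7 and 54.3 FPKM. *Oscar*, a costimulatory receptor, did not reach the minimum in the compared libraries, at 0.02 FPKM with M-CSF, 0.70 with RANKL and 0 with both cytokines.

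*Itgav*, the alpha chain of the vitronectin receptor by which osteoclasts attach, went the other way. It was at 27.3 FPKM with M-CSF, 68.3 with RANKL and 9.31 with both cytokines, below both. Its partner *Itgb3* was near the minimum, at 1.38, 0.82 and 1.13 FPKM. The log2 ratio of *Itgb3* to M-CSF was -0.17, within 2-fold, but adding 1 FPKM shrinks ratios at such levels. Of 10 fusion genes, *Dcstamp* and *Ocstamp* were higher and none was lower, with a median log2 ratio of -0.12. *Ocstamp* was at 0.08, 23.5 and 1.35 FPKM, so its level with both cytokines was low although it passed 2-fold.

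Of 21 osteoclast transcription factors compared, 4 were higher with RANKL and IL-3 (*Nfkb2*, *Jdp2*, *Relb* and *Fos*) and none lower, with a median log2 ratio of 0.36. With RANKL alone 11 were higher, with a median of 1.62. *Nfatc1*, the factor that drives the osteoclast program, was at 13.6 FPKM with M-CSF, 157 with RANKL and 17.7 with both cytokines, 1.30 times its M-CSF level (1.23 to 1.38 from counting error). *Fos*, the AP-1 subunit upstream of it, was at 42.003, 262 and 86.8 FPKM. *Jdp2*, another AP-1 family member, was at 12.8, 462 and 35.8 FPKM. All 3 were far lower than with RANKL alone, but *Fos* and *Jdp2* were 2-fold above M-CSF and *Nfatc1* was not.

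Members of the RANK and NF-κB pathway gave 7 higher genes of 30 and none lower, with a median log2 ratio of 0.17. All 7 were also higher with RANKL alone, where 12 of the 30 were, with a median of 0.50. Besides *Traf1* they were *Birc3*, *Nfkbie*, *Nfkb2*, *Nfkbia*, *Tnip1* and *Relb*, most of them NF-κB subunits of the non-canonical arm, inhibitors of NF-κB or brakes on the pathway. *Birc3*, a ubiquitin ligase of TNF receptor complexes, was at 7.595, 67.3 and 27.9 FPKM. *Nfkb2*, the precursor of p52, was at 15.8, 95.4 and 46.4 FPKM, and *Nfkbia*, the inhibitor IκBα, at 45.2, 198 and 110. Each lay between the M-CSF and the RANKL level. *Tnfrsf11a*, which encodes RANK itself, was at 35.8 FPKM with M-CSF, 61.4 with RANKL and 19.9 with both cytokines, the lowest ratio of the list at -0.82 although within 2-fold.

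Restrainers of osteoclast differentiation were split by RANKL alone, with 4 of 18 higher and 7 lower. With both cytokines, 1 was higher (*Nfkbia*) and 1 lower (*Bcl6*), with a median log2 ratio of 0.06. *Bcl6*, a transcriptional repressor that STAT5 is known to repress, was at 19.4 FPKM with M-CSF, 9.41 with RANKL and 3.76 with both cytokines. *Id1*, an inhibitor of helix-loop-helix factors, was at 133 FPKM with M-CSF, 8.51 with RANKL and 130 with both cytokines. *Id2* was at 122, 21.6 and 201 FPKM, and *Id3* at 126, 28.5 and 65.6. All 3 were lower with RANKL alone. With both cytokines their log2 ratios to M-CSF were -0.03, 0.72 and -0.94, all within 2-fold.

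The 117 RANKL-lowered genes that were still lower with both cytokines included 8 genes of the cholesterol synthesis list and 4 of the macrophage list. Against RANKL alone, 86 were within 2-fold, 29 were higher and 2, *Cx3cr1* and *Pcp4l1*, were lower. *Ms4a7*, a membrane protein of macrophages, was at 71.3 FPKM with M-CSF, 12.3 with RANKL and 10.1 with both cytokines. *F13a1*, the coagulation factor XIII subunit made by tissue macrophages, was at 98.2, 16.1 and 22.0 FPKM. *Cxcl14*, a chemokine, was at 120, 17.97 and 22.96 FPKM. *Itgb5*, an integrin beta chain that pairs with *Itgav*, was at 85.1, 12.97 and 18.7 FPKM. In these genes the level with both cytokines was near that with RANKL alone. *Hpgd*, which inactivates prostaglandins, was at 10.1, 0.77 and 0.63 FPKM, and *Slco2b1*, an organic anion transporter, at 12.9, 0.06 and 1.40. *Cbr2*, a carbonyl reductase, was at 106, 23.8 and 23.9 FPKM. *Ctla2b* was at 160, 6.80 and 14.8 FPKM, an uncertain value since *Ctla2a* beside it is nearly the same in sequence and reads can be split between them.

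Cholesterol synthesis stood out among the lists on the lower side. Of its 20 genes 9 were lower and none higher, with a median log2 ratio of -0.82, and 19 of the 20 had a ratio below 0. With RANKL alone 10 were lower, with a median of -0.97, and 8 of the 9 were lower in both. Between RANKL with and without IL-3, none of the 20 was 2-fold apart. *Idi1*, isopentenyl diphosphate isomerase, was at 32.4 FPKM with M-CSF, 10.8 with RANKL and 14.04 with both cytokines. *Sqle*, squalene epoxidase, was at 46.3, 16.1 and 20.3 FPKM. *Fdps*, farnesyl diphosphate synthase, the target of bisphosphonate drugs against osteoclasts, was at 108, 29.98 and 49.98 FPKM. Genes of lipid uptake and efflux were mixed, with 2 of 20 higher (*Abcg1* and *Ch25h*) and 1 lower, *Apoe*, at 639, 221 and 266 FPKM. *Ch25h*, which makes the oxysterol 25-hydroxycholesterol, was at 65.4, 2.24 and 180 FPKM, above M-CSF with both cytokines and far below it with RANKL.

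The macrophage list had been lower with RANKL alone in 24 of 28 genes, with a median log2 ratio of -2.06. With both cytokines 4 of the 28 were lower and 1 higher, with a median of -0.65, and 22 had a ratio below 0. The summed level of the list was 27184 FPKM with M-CSF, 9306 with RANKL and 21167 with both cytokines. *Lyz2* made up most of this sum with M-CSF and with both cytokines, so the sum mainly follows that gene. Its level with both cytokines was 0.80 times that with M-CSF. The complement gene *C1qc* was at 569, 59.1 and 272 FPKM, and *Csf1r*, the receptor of M-CSF, at 670, 227 and 365. *Maf*, a transcription factor of resident macrophages, was at 59.8, 3.58 and 27.6 FPKM. Each lay between the RANKL and the M-CSF level. *Fcgr2b*, the inhibitory receptor for IgG, was the member that was higher, at 36.1, 29.6 and 154 FPKM. In bulk samples fewer cells of a type and less RNA per cell cannot be told apart.

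**Figure D3:**
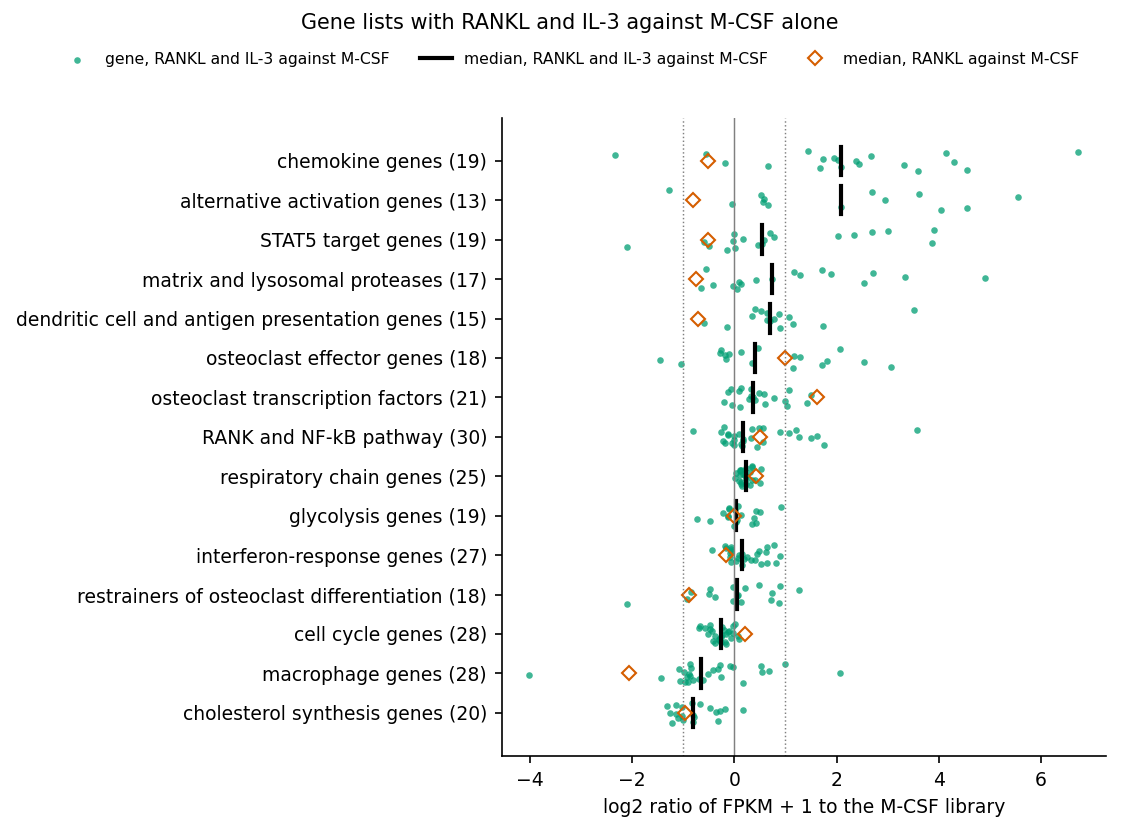
Log2 ratio of FPKM + 1 to the M-CSF library for the compared genes of 15 gene lists (number of genes in parentheses). Green points are single genes with RANKL and IL-3, black bars their medians, orange diamonds the medians with RANKL alone, and dotted lines mark 2-fold. The median with both cytokines lies above 2-fold for the chemokine and the alternative activation list (the latter falls to 0.62 with no minimum), and the macrophage list lies nearer 0 with both cytokines than with RANKL alone.

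Gains above the macrophage state were the larger part of the higher genes. Against RANKL alone, RANKL with IL-3 was higher in 658 genes (6.29%) and lower in 288 (2.75%). Of the 269 genes higher than M-CSF, 159 were higher than RANKL alone as well (1.52% of all genes). Both ratios of such a gene share the library with RANKL and IL-3. An unusual value there would place a gene in this class, and its part was not tested. Of these 159, 118 were within 2-fold between RANKL and M-CSF, 33 were lower with RANKL and 8 higher. A total of 28 higher genes belonged neither to this class nor to the 90, among them *Cd80*.

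The chemokine list held 14 of the 159 gained genes. Of 19 compared, 15 were higher with both cytokines than with M-CSF, 1 was lower (*Cxcl14*) and 3 were within 2-fold, with a median log2 ratio of 2.09. With RANKL alone 1 was higher and 8 were lower, with a median of -0.51. *Cxcl3*, a neutrophil chemoattractant, was at 2.27 FPKM with M-CSF, 1.54 with RANKL and 346 with both cytokines. Its level with both cytokines was 152 times that with M-CSF (122 to 194 from counting error), the highest log2 ratio of all genes at 6.73. *Cxcl2*, a close relative, was at 3.00, 1.80 and 69.9 FPKM. *Ccl6* was at 94.3, 7.72 and 1866 FPKM, *Ccl12* at 77.4, 2.76 and 944, and *Ccl3* at 25.5, 6.49 and 263. *Ccl2*, the main ligand of CCR2 on monocytes, was at 1234, 79.2 and 3942 FPKM. Each had its lowest level with RANKL alone and its highest with the pair. *Ccr1*, a receptor for several CC chemokines, was at 18.2, 34.8 and 82.8 FPKM.

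Genes of alternative activation, the state that IL-4 induces in macrophages, were another list with a median above 2-fold among the genes compared. Of 13 compared, 7 were higher and 1, *Tgm2*, was lower, with a median log2 ratio of 2.09, against 1 higher and 6 lower with RANKL alone. *Ccl17*, *Ccl22*, *Retnla* and others reached the minimum of 1 FPKM with both cytokines and not with M-CSF. With no minimum, over all 16 members, the median was 0.62, under 2-fold. The list shares *Ccl17*, *Ccl22* and *Ccl24* with the chemokine list. *Mgl2*, a C-type lectin, was at 2.12 FPKM with M-CSF, 0.56 with RANKL and 145 with both cytokines. *Arg1*, arginase 1, was at 17.2, 1.62 and 298 FPKM. *Clec7a*, the beta-glucan receptor dectin-1, was at 9.33, 5.22 and 78.8 FPKM. *Ccl17*, a ligand of CCR4, was listed at 0 with M-CSF and was at 0.18 with RANKL and 22.4 with both cytokines, and *Retnla* was listed at 0, at 0.04 and at 11.3. No fold is given where a library is listed at 0. *Chil3* (log2 ratio -0.04) and *Mrc1* (0.51), which belong to the same state, were within 2-fold.

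STAT5 target genes gave 6 higher and 1 lower (*Bcl6*) of 19, with a median log2 ratio of 0.54, against 4 higher and 7 lower with RANKL alone. Feedback inhibitors of cytokine signalling made up 4 of the higher genes. *Cish* was at 0.07 FPKM in both other libraries and at 14.6 with RANKL and IL-3. This is 201 times the M-CSF level, with a wide counting interval of 96.6 to 506, since only about 6.87 fragments lay behind the M-CSF value. *Socs2* was at 0.27, 0.60 and 9.22 FPKM, and *Socs1* at 0.99, 5.79 and 11.8. *Pim1*, a survival kinase, was at 7.17, 6.79 and 40.4 FPKM, and the cytokine gene *Osm* at 5.09, 3.27 and 23.8. *Pim2*, *Bcl2l1* and *Mcl1*, also named as targets, were at log2 ratios of -0.01, 0.01 and 0.16. The beta chains of the IL-3 receptor were themselves higher, *Csf2rb* at 32.2, 64.2 and 165 FPKM and *Csf2rb2* at 16.5, 47.3 and 52.7. Their sequences are close to each other, so the division between them is uncertain. The alpha chain gene *Il3ra* was within 2-fold at -0.34.

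STAT5 binds as a dimer to TTCNNNGAA, a motif that reads the same on both strands. It was searched for in the 250 bases before each annotated start in a table of RefSeq promoters on GRCm38.p6, where 7.02% of 32851 promoters hold it. Only 126 of the 159 gained genes (79.2%) had a promoter in the table, against 81.3% of the genes compared, so shares cover part of each set. The motif was in 13 of 161 promoters of gained genes (8.07%) and in 5.83% of promoters of the genes compared. The other classes were above that share too. It was 6.96% for the RANKL-raised genes still higher and 6.45% for the RANKL-lowered genes still lower. For genes lower than both M-CSF and RANKL it was 17.6%, or 3 of only 17 promoters. These differences were not tested. *Cish* had no match in this window, which says nothing of sites elsewhere. Sites of 2 gained genes with high ratios are shown, to give the letters of the motif. It is in capitals, and each sequence is written 5′ to 3′ on the strand of its gene. The *Socs3* window is chr11:117969502-117969530 on the minus strand, with the motif beginning 154 bases before a start. The *Ccl17* window is chr8:94810344-94810372 on the plus strand, with the motif 99 bases before a start. Both lie before 1 annotated start but inside the widest span RefSeq gives the gene. In GENCODE M21 the *Socs3* window overlaps 1 of 3 transcripts, in an intron, and the *Ccl17* window overlaps none. A match is not a bound site.
Socs3: gaaaccagccTTCTTAGAAgggagggggg
Ccl17: ttatctcaaaTTCTTTGAAtttctctagt

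Proteases and cytokines were also among the gains. Of 17 matrix and lysosomal proteases and their inhibitors, 8 were higher and none lower, with a median log2 ratio of 0.75 (0.13 with no minimum), while 3 were higher and 7 lower with RANKL alone. *Mmp12*, macrophage elastase, was at 59.1 FPKM with M-CSF, 26.9 with RANKL and 1791 with both cytokines, 30.3 times its M-CSF level (29.6 to 31.1). *Mmp13*, a collagenase, was at 1.45, 0.26 and 23.8 FPKM and *Mmp8*, another, at 20.9, 8.90 and 143. These were higher than in both other libraries, whereas *Mmp9*, *Mmp14* and *Ctsk* of the same list were the RANKL-raised members that remained. *Serpinb2*, an inhibitor of plasminogen activators, was at 0.39, 1.49 and 18.6 FPKM.

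Of 15 secreted cytokine genes 5 were higher and 1 lower, with a median log2 ratio of 0.25. *Il1rn*, which encodes the IL-1 receptor antagonist, was at 12.5, 36.7 and 139 FPKM, and *Il1a*, an agonist of the same receptor, at 0.15, 0.20 and 7.30. *Csf1*, the gene of M-CSF, was at 0.39, 0.41 and 5.02 FPKM. The lower gene was *Spp1*, which encodes osteopontin, at 6298, 1216 and 2548 FPKM. In the list of dendritic cell and antigen presentation genes, 4 of 15 were higher (*Itgax*, *Cd74*, *Cd80* and *H2-DMa*) and none lower, with a median of 0.70 (0.40 with no minimum). *Itgax*, which encodes CD11c, was at 7.78, 10.2 and 99.7 FPKM, and *Cd74*, the invariant chain, at 130, 83.4 and 434. *Cd86* was within 2-fold at 0.70. *Flt3*, *Zbtb46*, *Ccr7* and *Clec9a*, which mark dendritic cells, were below 1 FPKM on both sides. *Batf3*, *Irf4* and *Xcr1* of the same list passed the minimum and were within 2-fold on the scale of FPKM + 1. Their plain FPKM with both cytokines were 2.16, 2.19 and 1.87 times those with M-CSF. Of the 15 genes compared, 13 had a ratio above 0 and 2 below.

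**Figure D4:**
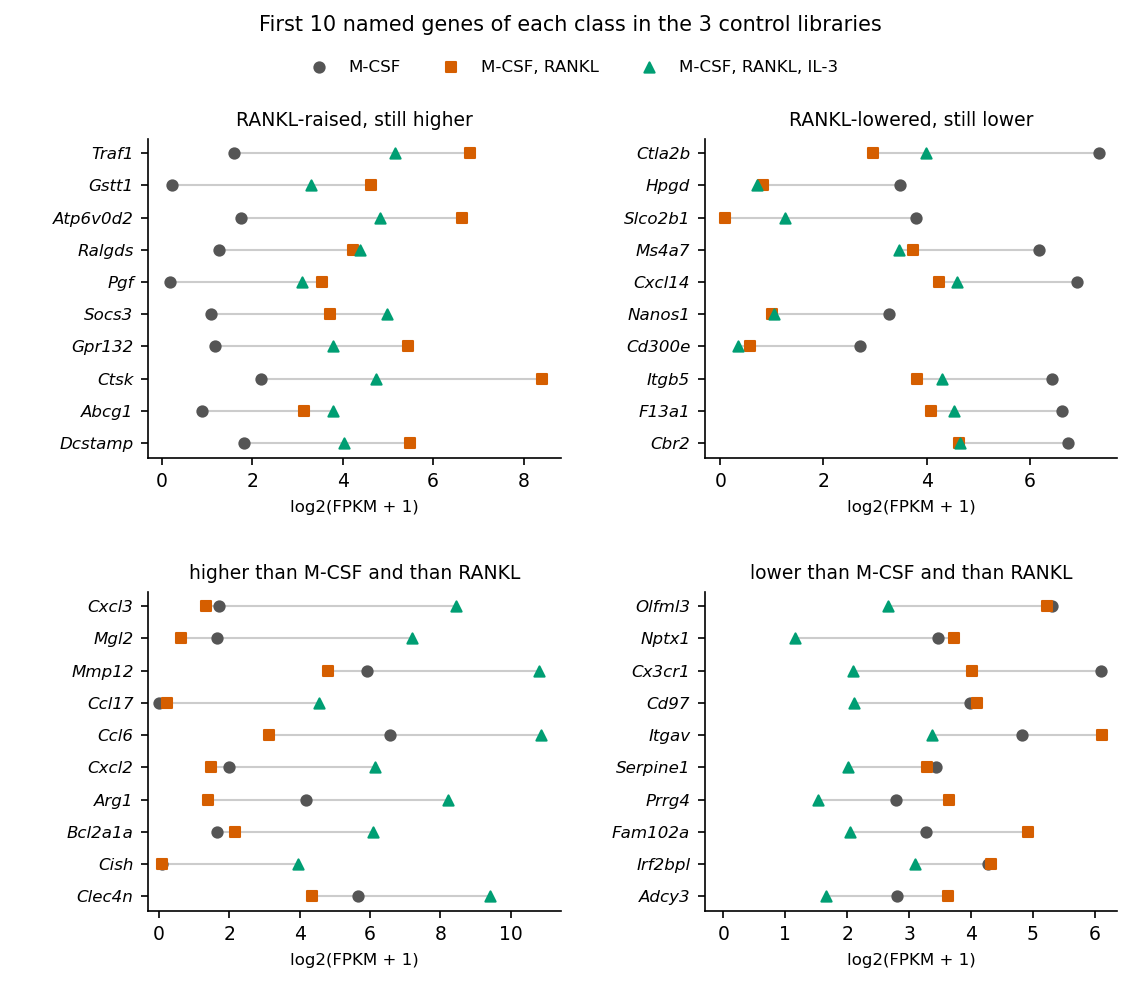
Level of the first 10 genes of each class by the naming rule in the 3 *Stat5* fl/fl libraries, as log2(FPKM + 1), with 1 symbol per library and a grey line from the lowest to the highest. In the upper left panel the triangles (RANKL and IL-3) lie mostly between the circles and the squares, in the upper right mostly near the squares, and in the lower panels outside both. *Bcl2a1a* and *Ctla2b* have near-identical copies and are uncertain.

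Only 18 genes (0.172%) were lower with both cytokines than with M-CSF and than with RANKL alone, and 14 of them did not differ 2-fold between RANKL and M-CSF. Both of their ratios also share the library with RANKL and IL-3, and the part of an unusual value there was not tested. *Cx3cr1*, the fractalkine receptor of monocytes and resident macrophages, was at 68.0 FPKM with M-CSF, 15.1 with RANKL and 3.26 with both cytokines, the lowest log2 ratio of all genes at -4.02. *Olfml3*, a secreted matrix protein, was at 38.6, 36.5 and 5.29 FPKM. *Nptx1* was at 10.02, 12.2 and 1.23 FPKM, and *Cd97*, an adhesion receptor, at 14.9, 16.1 and 3.32. The last 3 were within 2-fold between RANKL and M-CSF.

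Some genes of a class lay side by side on the genome. Of the 159 gained genes, 34 (21.4%) had another within 100 kb, while 3.81% of the 10438 genes with a position in RefSeq on GRCm38.p6 lay as near to a gained gene. The corresponding shares were 8.89% against 2.19% for the RANKL-raised genes still higher, and 14.5% against 2.7% for the RANKL-lowered genes still lower. None of the 18 genes lower than both had such a neighbour (0% against 0.537%). Many of these neighbours are copies of the same gene family and are not independent. The gained neighbours were *Ccl2*, *Ccl7*, *Ccl12* and *Ccl8* (chr11:82035577-82116799), *Ccl9*, *Ccl6*, *Ccl3*, *Ccl4*, *Wfdc17* and *Wfdc18* further along (chr11:83572917-83711360), and *Cxcl5*, *Ppbp*, *Pf4* and *Cxcl3* (chr5:90759298-90788093). *Ppbp* and *Pf4*, platelet chemokines, were at 13.7, 4.38 and 125 FPKM and at 657, 115 and 1782. Smaller groups were *Mmp13* with *Mmp12*, *Ccl22* with *Ccl17*, and the coagulation factor genes *F7* with *F10*. *F10* was at 1.28, 1.29 and 21.5 FPKM and *F7* at 0.55, 0.47 and 11.3, both gained.

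The largest run of RANKL-raised genes that remained higher held 6 genes on chromosome 10 (chr10:75771233-75937750), *Ddt*, *Gstt3*, *Gstt1*, *Gstt4*, *Gstt2* and *Chchd10*. The *Gstt* genes encode theta-class glutathione transferases, and *Ddt* encodes D-dopachrome tautomerase, a relative of MIF. *Gstt1* was at 0.17 FPKM with M-CSF, 23.8 with RANKL and 8.91 with both cytokines, and *Ddt* at 18.9, 99.2 and 48.8. *Chchd10*, a mitochondrial protein, was at 5.41, 29.4 and 12.6 FPKM. All lay between the M-CSF and RANKL levels except *Gstt4*, which was listed at 0 with M-CSF and was at 1.58 with RANKL and 3.66 with both. The *Gstt* copies are similar in sequence and some values may be split between them. *Mif* lay in the same stretch at 234, 633 and 386 FPKM, within 2-fold of M-CSF with both cytokines, and *Smarcb1* in it, at 40.6, 43.97 and 42.6 FPKM, differed little between the 3.

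**Figure D5:**
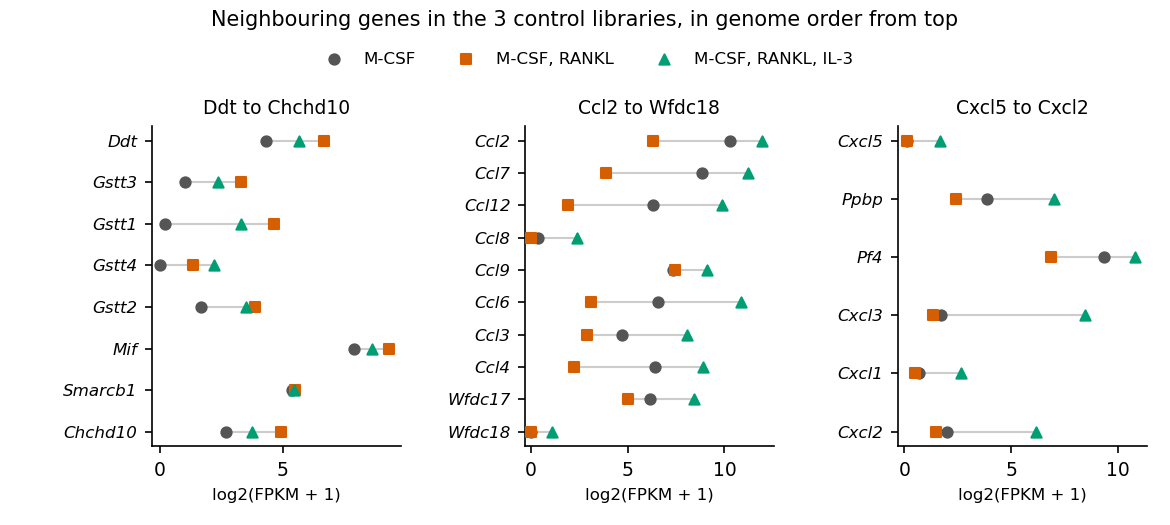
Levels of neighbouring genes on chromosomes 10, 11 and 5 in the 3 *Stat5* fl/fl libraries, as log2(FPKM + 1), in genome order from the top of each panel. Other genes between them are not drawn. In the left panel squares (RANKL) are mostly the highest, and in the other panels triangles (RANKL and IL-3) are.

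Of 21 cytokine receptor genes 4 were higher and none lower, with a median log2 ratio of 0.11 (0.01 with no minimum). With RANKL alone 2 were higher and 6 lower. The lists that follow held 1 gene 2-fold apart or none. Over all genes the background was 2.57% higher and 1.46% lower. None of 28 cell cycle genes, 27 interferon-response genes, 25 respiratory chain genes and 19 glycolysis genes was 2-fold apart, with medians of -0.25, 0.15, 0.22 and 0.03. All 25 respiratory chain genes had a ratio above 0, and 25 of the 28 cell cycle genes one below 0. Of 18 genes of the ATF4 stress response 1 was higher, *Slc7a11*, the cystine transporter, at 2.06, 1.56 and 9.49 FPKM. Of 14 iron genes 1 was higher, *Ncoa4*, which delivers ferritin for degradation, at 24.8, 50.7 and 52.8 FPKM.

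Markers of other cells that IL-3 might expand or that marrow cultures can hold were mixed, and the basophil, eosinophil and megakaryocyte lists held 1 gained gene each. None of 11 neutrophil markers was 2-fold apart, with a median of -0.41, and their summed level was 1377 FPKM with M-CSF, 789 with RANKL and 1148 with both cytokines. *S100a8* was at 513 FPKM with M-CSF and 437 with both cytokines. Of 12 basophil and mast cell markers 2 reached 1 FPKM, with sums of 2.29, 3.31 and 4.25 FPKM. *Mcpt8*, a basophil protease, was at 0.27 with M-CSF and 1.61 with both cytokines, and *Fcer1a*, *Mcpt4*, *Tpsb2* and *Cma1* were at 0 on both sides. Of 6 eosinophil markers *Siglec5* was higher, at 0.46 and 2.82 FPKM, in a sum of 4.65 and 5.41. Of T and NK cell, B cell and stromal markers 1 each was compared and none was 2-fold apart. Of the erythroid and megakaryocyte markers *Ppbp* was gained, at 13.7 and 125 FPKM, and took the sum from 15.5 to 127, while *Itga2b* was at 1.02 and 0.83 FPKM. The part of these cells in the ratios was not tested.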

How the data were processed

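The authors prepared 1 TruSeq library per condition, and the submitters' processing notes name TopHat2 2.0.13, Cufflinks 2.2.1 and the build mm10. The deposited values are FPKM per transcript. The unit was inferred from the software and the values. Transcripts were summed per gene ID, and ratios were taken as log2(FPKM + 1). Still higher (or lower) means 2-fold from M-CSF the same way with and without IL-3, and gained (or lost) 2-fold above (or below) both M-CSF and RANKL. Members and lists were chosen with earlier results of these data known. The 30 lists held 492 genes. Genes were named from the lists, as the 15 highest and 15 lowest ratios among genes of at least 5 FPKM, as the 10 leading genes of each class, or because the study names them. Part of these is reported. Others (*Prkcd*, *Junb*, *Ccr1*, *F7*, *F10*, *Mif*, *Smarcb1*, *Ddt*, *Chchd10* and the other neighbours) were picked with their values in view. The depth estimate came from the steps of low values, 69.5% to 72.4% of which lay near a whole fragment, where even spacing gives 40%, though the step was fitted to the same values. Alternatives were other pseudocounts, scalings, minimums, thresholds and transcript choices. The calls of higher, lower and gained genes were tested on simulated data with planted changes of at least 4-fold. No effect of RANKL was planted, and the still higher, still lower and lost classes were not tested in this way. Python 3.11.15, numpy 2.4.6, pandas 2.3.3 and matplotlib 3.10.9 were used.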

Additional observations from a re-analysis of the deposited data

How the results depend on the processing

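With 1 library per condition, no replicate could be left out. No paired analysis was possible because the result comes from no test. The counts of higher, lower, still higher, still lower, gained and lost genes (269, 153, 90, 117, 159 and 18) stayed within 1.5 times under both scalings, both other minimums, with small RNA genes kept, and with the most abundant transcript per gene. A pseudocount of 0.1 FPKM gave 267 lower, 140 still higher, 196 still lower and 39 lost genes, since it moves low genes more. A 1.5-fold threshold gave 567, 558, 235, 420, 314 and 82, and a 4-fold threshold 85, 19, 17, 13, 51 and 2. All 46 named genes kept their direction and stayed 2-fold apart under the 7 other settings besides the thresholds. Of 30 list medians, 26 kept their sign, and of the 3 above 2-fold only that of the chemokines (2.06 to 2.897) stayed there in every such setting. With no minimum, the median of alternative activation genes was 0.62 (3.06 with the pseudocount of 0.1 FPKM), that of proteases 0.13, of dendritic cell genes 0.40 and of osteoclast effectors 0.26, and that of the erythroid and megakaryocyte markers turned to -0.0252 with no minimum. Levels of a few fragments, such as *Cish* with M-CSF, are the least precise.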

Other observations

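Some gained genes belonged to no list. *Bcl2a1b*, of the anti-apoptotic BCL2 family, was at 56.4 FPKM with M-CSF, 14.9 with RANKL and 309 with both cytokines, and *Bcl2a1d* at 7.38, 2.42 and 77.1, although these copies are near-identical and share reads. The C-type lectin *Clec4n* (dectin-2) was at 49.9, 19.6 and 683 FPKM, a level above that of *Clec7a*. *Upp1*, uridine phosphorylase, was at 0.16, 3.61 and 25.4 FPKM. *Ltb4r1*, a leukotriene B4 receptor, was at 2.47, 1.57 and 17.8 FPKM, and *Pdpn*, podoplanin, at 24.2, 16.1 and 118. *Alas1*, the first enzyme of haem synthesis, was at 35.6, 38.6 and 152 FPKM. *Cd274*, which encodes PD-L1, was RANKL-raised and higher still with IL-3, at 1.37, 8.93 and 18.6 FPKM. These genes were chosen after their values were seen.

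In the library of *Stat5* cKO cells with the same cytokines, *Cxcl3* was at 10.05 FPKM, *Mgl2* at 4.77, *Mmp12* at 43.1 and *Cish* at 0.16, each far below the *Stat5* fl/fl level with both cytokines. There *Traf1* was at 108 FPKM and *Ctsk* at 107, each above it. The other leading RANKL-raised genes still higher with IL-3 were divided in the cKO library. *Gstt1*, *Atp6v0d2*, *Gpr132* and *Dcstamp* were above the *Stat5* fl/fl level with both cytokines. *Socs3* (12.4 FPKM), *Abcg1* (6.63), *Ralgds* (15.9) and *Pgf* (5.50) were below it. This is 1 library of another genotype, and no difference was tested.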
